A study of Homo sapiens with 8 samples.

Results

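Ribosome biogenesis genes were described in 2 human colon cancer cell lines, called DKS-5 and DKO-3, each kept in normoxia or exposed to hypoxia. A list of 34 genes was used, chosen to cover transcription of ribosomal RNA, its modification and processing, and the assembly of both ribosomal subunits. Each gene was read from 1 probe set, the one with the highest mean log2(signal + 16) over the 8 scaled arrays among those annotated to exactly 1 gene symbol. Of the 34 genes, 29 had such a probe set, out of 19775 genes with one on the array, and all 29 passed the filter on dim signals that left 12735 genes for testing. NOP56, DKC1, BOP1 and PPAN had only probe sets annotated to several genes and are described no further. GNL3 is not analysed here.

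A ribosome is built mainly in the nucleolus. RNA polymerase I transcribes a long precursor of ribosomal RNA, and small nucleolar ribonucleoproteins (snoRNPs) guide the chemical modification of its nucleotides. A large set of assembly factors folds, cuts and exports the pre-ribosomal particles of the small and the large subunit. The pathway consumes much of the energy and nucleotides of a growing cell, its genes are well-known targets of growth-promoting transcription factors, and oxygen shortage is known to slow ribosomal RNA synthesis in other cell systems.

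The study crossed genotype with oxygen. By its labels DKS-5 is a K-ras mutant line, and DKO-3 is K-ras wild-type and also named a knockout. Each line was grown to subconfluence in standard medium and kept at 21% O2 (normoxia) or at 1% O2 for 12 h (hypoxia), and each of the 4 groups had 2 arrays. Each genotype was represented by 1 line, so that genotype and line cannot be told apart, and DKS-5 minus DKO-3 is a difference between lines. Whether a group's 2 samples were separate cultures is not stated in the labels. The p-values therefore cover the spread among the samples alone, and this spread may be technical. Values are signals of Affymetrix HG-U133 Plus 2.0 arrays, an intensity on a linear scale that orders samples within a probe set and not probe sets among each other. In total RNA from whole cultures, fewer cells of a type and less RNA per cell cannot be told apart.

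K-ras itself is not analysed here, and its level gave no check of the genotype. The oxygen labels were checked on NDRG1, a stress gene strongly induced by hypoxia. Its signals were 132 and 127 in normoxic against 1995 and 2095 in hypoxic DKS-5 cells, and 413 and 341 in normoxic against 2006 and 1930.5 in hypoxic DKO-3 cells. It rose in both lines, by 3.82 (adjusted p = 7.28e-08) and 2.34 (adjusted p = 8.18e-05) on the log2(signal + 16) scale. EGLN3 and VEGFA were checked as well. EGLN3 rose by 2.34 in DKS-5 (adjusted p = 0.000235, limma) and by 2.13 in DKO-3 (adjusted p = 0.00175, limma). VEGFA rose by 2.12 in DKS-5 (adjusted p = 0.000207, limma), but its 0.58 in DKO-3 missed the threshold (adjusted p = 0.414, limma). All adjusted p-values are from limma with Benjamini-Hochberg adjustment over the 12735 genes. The 2% trimmed mean of the deposited signals ran from 133 to 202 over the arrays before scaling to 172.9, and the correlation of 2 arrays of a group from 0.976 to 0.989 over genes. Of 11 epithelial and intestinal markers, 8 passed the dim filter, with EPCAM and CDH1 bright on all arrays, whereas CDX1, CEACAM5 and LGALS4 did not. Some epithelial markers differed between lines in opposite directions: over both oxygen levels DKS-5 minus DKO-3 was -4.01 for KRT20 (adjusted p = 4.27e-09, limma), -0.96 for KRT19 (adjusted p = 0.00191, limma) and 1.65 for VIL1 (adjusted p = 2.29e-05, limma). KRT19 rose in hypoxia, by 1.28 in DKS-5 (adjusted p = 0.0221, limma), and it also rose over both lines (adjusted p = 0.00118, limma). Of 23 fixed markers of stromal, endothelial, immune, blood and muscle cells, 19 had a probe set and 15 of these lay below the dim limit. The summed signal of all 19 ran from 195 to 288 over the arrays, and none of the 4 tested changed in any comparison.

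RNA quality differed between arrays. The ratio of the 3′ to the 5′ signal of ACTB, which grows as RNA is degraded or copied incompletely, was 55.1 and 34.3 in normoxic and 54.8 and 25.6 in hypoxic DKS-5 cells, and 49.0 and 14.9 in normoxic and 11.5 and 11.0 in hypoxic DKO-3 cells. The DKO-3 hypoxia arrays thus had the lowest ratios, and replicate 1 had the higher ACTB ratio in every group. For GAPDH the corresponding 3′ to 5′ ratios were 3.70 and 4.23 in normoxic and 3.76 and 2.36 in hypoxic DKS-5 cells, and 4.15 and 2.09 in normoxic and 1.53 and 1.61 in hypoxic DKO-3 cells, so that DKO-3 hypoxia was again lowest while replicate 1 was the higher in only 2 of 4 groups. A fit with the ACTB ratio as a covariate was 1 of the alternatives and is quoted for some of the results. Beyond that fit, the part of RNA quality in the differences was not tested.

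Across the 8 arrays the ribosome biogenesis genes moved by small amounts relative to their own means. The median deviation of the 29 genes from their means, in log2, was 0.16 and 0.21 in normoxic and 0.02 and -0.18 in hypoxic DKS-5 cells, and -0.10 and 0.12 in normoxic and -0.19 and -0.12 in hypoxic DKO-3 cells. Both DKS-5 normoxia arrays were therefore high and both DKO-3 hypoxia arrays low, while the arrays of the other 2 groups fell on either side of, or close to, 0. Of the 29 genes, 24 and 21 stood above their own mean on the DKS-5 normoxia arrays and 8 and 10 on the DKO-3 hypoxia arrays. In DKO-3 normoxia the numbers were 6 and 25, so the arrays of that group disagreed for most of the genes. The median over all 12735 genes stayed between -0.03 and 0.06 on every array.

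**Figure D1:**
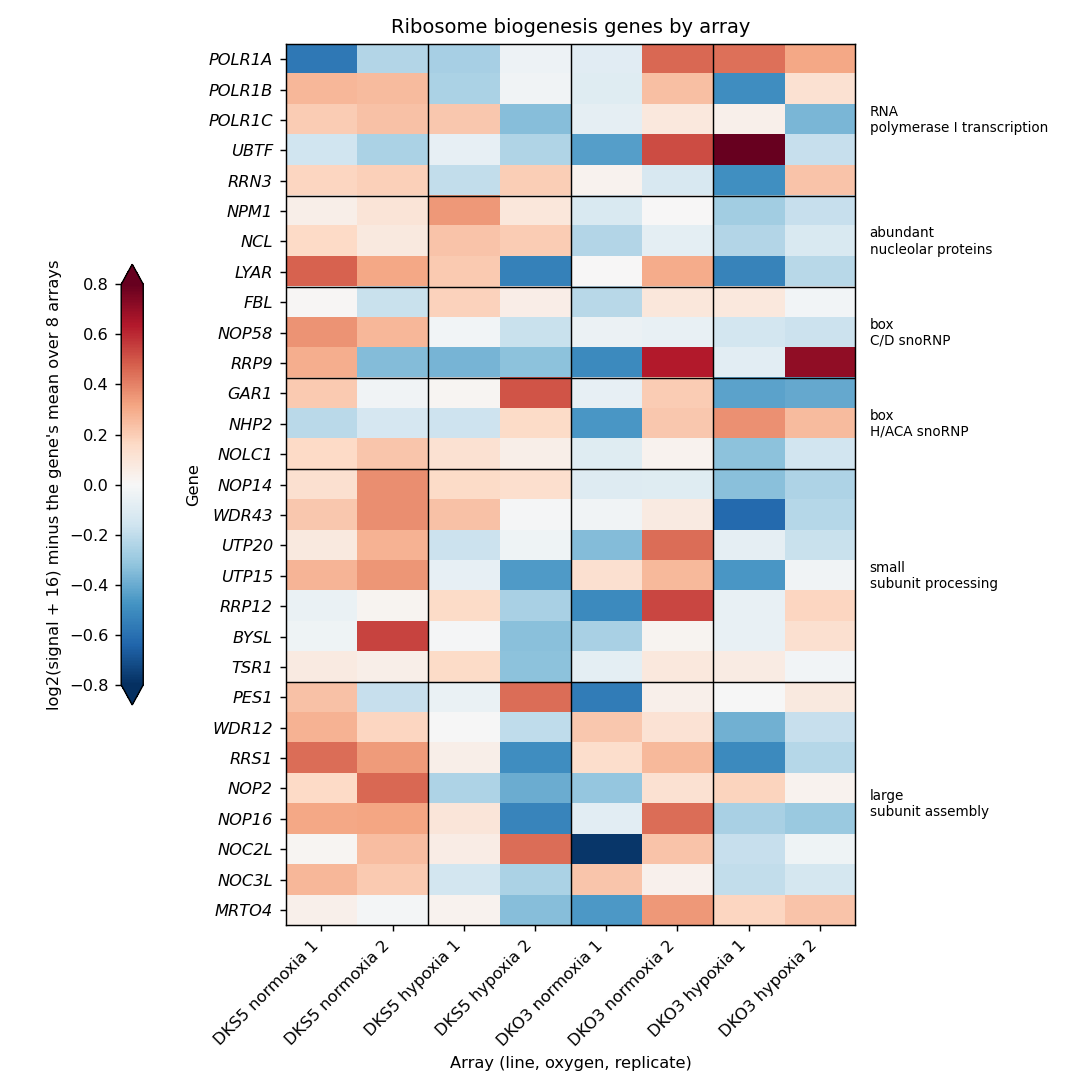
Heat map of each ribosome biogenesis gene (rows, grouped by role) on each of the 8 arrays (columns), coloured by the deviation of log2(signal + 16) from the gene's mean over the arrays, with colours clipped at the ends of the scale. The DKS-5 normoxia arrays are mostly above the gene means and the DKO-3 hypoxia arrays mostly below, and 25 of 29 genes were higher on replicate 2 than on replicate 1 of DKO-3 normoxia.

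By group means, DKS-5 normoxia was the highest of the 4 groups for 17 of the 29 genes, against 21.5% of all genes tested. DKO-3 normoxia was the highest for 0 of the 29, against 19.9%. DKO-3 hypoxia was the lowest for 15 of the 29, against 25.4% of all genes. Replicates of a group did not always lie close. In DKS-5 hypoxia 20 of 29 genes were higher on replicate 1, with a median difference of 0.15 in log2, and in DKO-3 normoxia 25 were higher on replicate 2, with a median replicate 1 minus replicate 2 difference of -0.28. The same median over all genes was -0.02 and 0.01 in these groups.

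Hypoxia was compared with normoxia within each line to ask how the pathway's transcripts behaved under oxygen shortage. Most of the genes had lower signals in hypoxia, led by RRS1, LYAR, UTP15 and NOP16, but none of the 29 changed past the threshold in either line. In DKS-5 the limma test called 0 of 29, against 0.503% of all genes, all of the latter higher in hypoxia. At an unadjusted p under 0.05 it found 7 lower and 0 higher, against 2.47% and 4.45% of all genes. In DKO-3 it called 0 of 29, against 0.346%, and at an unadjusted p under 0.05 it found 5 lower and 0 higher, against 2.69% and 7.82%. Averaged over both lines, the test again called 0, against 1.19%, with 8 lower and 0 higher at an unadjusted p under 0.05, against 4.59% and 9.74%. In DKS-5 the median difference of the 29 genes minus that of all genes was -0.20. It was -0.33 without DKS-5 hypoxia replicate 1 and -0.10 without DKS-5 hypoxia replicate 2, so its size depended on the array left out.

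The direction was nevertheless shared by most of the genes. The difference was below 0 for 20 of 29 genes in DKS-5, against 46.8% of all genes, for 17 in DKO-3, against 45.6%, and for 14 in both lines, against 28.1%. The median difference of the 29 was -0.18 in DKS-5 and -0.11 in DKO-3, against 0.02 and 0.03 over all genes. Both hypoxia arrays were below both normoxia arrays for 11 genes in DKS-5, against 15.7% of all genes, and for 12 in DKO-3, against 17.1%. The 8 genes with such lower arrays in both lines were LYAR, NOP58, NOLC1, UTP15, WDR12, RRS1, NOP16 and NOC3L, against 5.28% of all genes. None of the 29 had higher arrays in both lines, against 8.54%. The difference was above 0 in both lines for 6 genes, POLR1A, UBTF, FBL, NHP2, PES1 and NOC2L, against 35.7%.

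**Figure D2:**
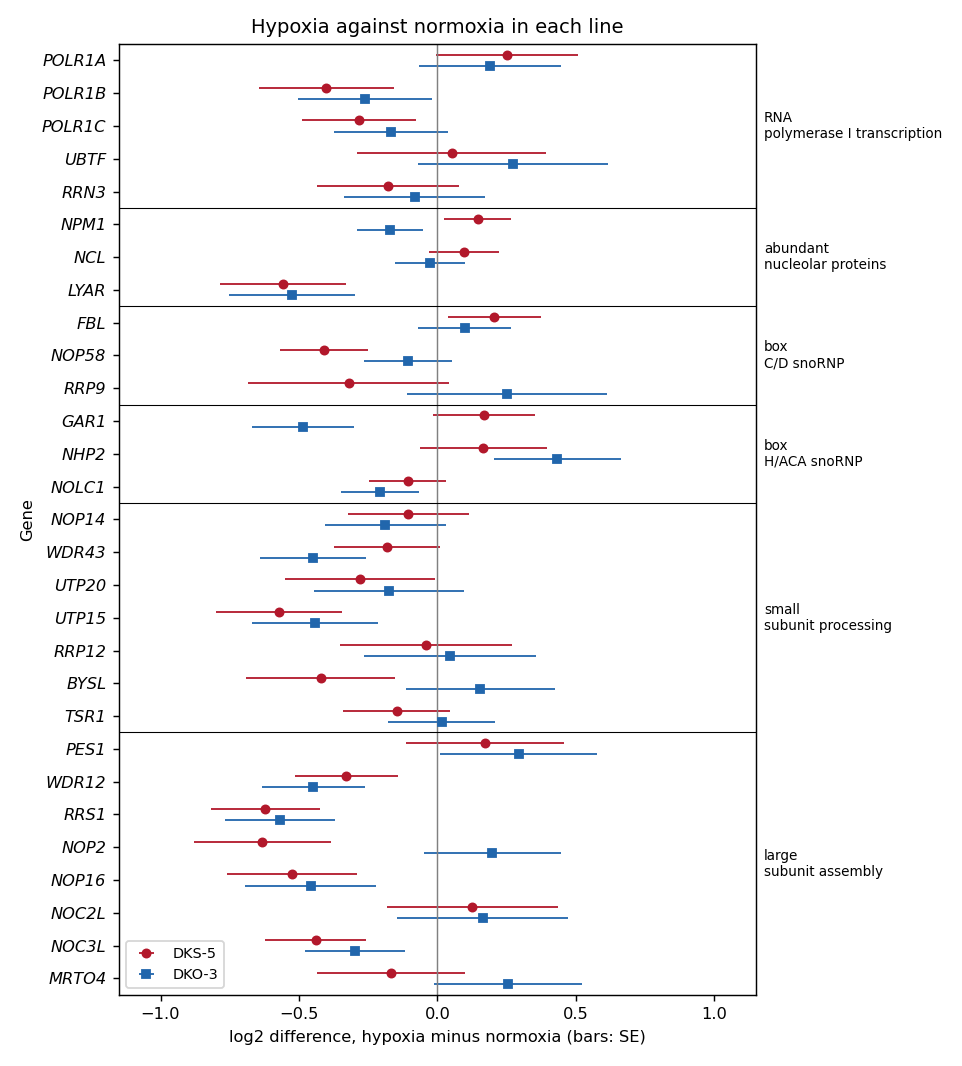
Log2(signal + 16) difference of hypoxia minus normoxia for each of the 29 genes (rows, by role) in DKS-5 and in DKO-3, with bars of 1 standard error from the limma fit. RRS1 lies at -0.62 and -0.57 and LYAR at -0.56 and -0.53, while NOP2 lies at -0.63 in DKS-5 and 0.20 in DKO-3.

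Among the factors of large subunit assembly, RRS1 had the smallest p of all 29 genes in both lines. RRS1 helps to incorporate the ribosomal proteins of the central protuberance into the early large subunit. Its signals were 2668 and 2480.1 in normoxic against 2016 and 1377 in hypoxic DKS-5 cells, and 2149.9 and 2337 in normoxic against 1365 and 1663 in hypoxic DKO-3 cells. Every hypoxia array was below every normoxia array of both lines, and the DKS-5 hypoxia arrays were the farthest apart. The difference was -0.62 (SE 0.20, adjusted p = 0.453, limma), a 1.54-fold lower level, in DKS-5 and -0.57 (SE 0.20, adjusted p = 0.343, limma) in DKO-3. Averaged over both lines it was -0.59 (SE 0.14, adjusted p = 0.0524, limma), just short of the threshold of 0.05. RRS1 stayed short of it in 11 of 15 alternatives, with an adjusted p of 0.403 in the limma fit with the RNA quality covariate. It passed in 4, among them no array scaling (adjusted p = 0.0264, limma) and quantile normalization (adjusted p = 0.0460, limma).

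NOP16, a nucleolar protein of early large subunit particles, had signals of 1326 and 1331 in normoxic and 1143 and 736 in hypoxic DKS-5 cells, and 1005 and 1457 in normoxic and 887 and 866 in hypoxic DKO-3 cells. The hypoxia arrays were again the lower ones, with the wide gaps between replicates in DKS-5 hypoxia and DKO-3 normoxia. The differences were -0.53 and -0.46, and -0.49 (SE 0.17, adjusted p = 0.196, limma) over both lines. Its 3 other probe sets above the dim filter differed by -0.35, -0.78 and -0.16 in DKS-5 but by 0.44, -0.32 and 0.58 in DKO-3, so the direction in DKO-3 depended on the probe set.

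NOC3L, which forms complexes with other NOC proteins on pre-ribosomes, had signals of 1516 and 1456 in normoxic and 1132 and 1052 in hypoxic DKS-5 cells, and 1472 and 1288 in normoxic and 1095 and 1141 in hypoxic DKO-3 cells. Replicates were close in every group and the hypoxia arrays of each line lay below its normoxia arrays, with differences of -0.44 and -0.30. WDR12, a partner of PES1 and BOP1 in the PeBoW complex needed for large subunit processing, had signals, normoxia first and then hypoxia as also in later sentences, of 1515 and 1411, then 1246 and 1081 in DKS-5, and 1449.7 and 1351, then 953 and 1095 in DKO-3. It was lower in hypoxia in both lines, by -0.33 and -0.45 in log2. Of its 2 other, dim probe sets, 1 lay above 0 in each line. PES1 itself was dim and went the other way, with 115 and 81.9, then 90.9 and 136 in DKS-5, and 59.5 and 98.4, then 94.9 and 101 in DKO-3, and its groups overlapped in both lines.

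The remaining factors of the large subunit did not share 1 direction. NOP2, a ribosomal RNA methyltransferase known as a proliferation antigen, had signals of 273 and 340.3 in normoxic and 202 and 181 in hypoxic DKS-5 cells, and 192 and 266 in normoxic and 277 and 248 in hypoxic DKO-3 cells. It was lower in hypoxia in DKS-5, by -0.63 (SE 0.25, adjusted p = 0.621, limma), whereas the DKO-3 groups overlapped, with a difference of 0.20. MRTO4, a factor that holds the place of the ribosomal stalk protein, differed by -0.17 and 0.26. NOC2L, a NOC protein that also binds histones, differed by 0.13 and 0.16 with dim and overlapping signals of 29.0 to 89.2. In all, 6 of the 8 large subunit genes lay below 0 in DKS-5 and 4 of 8 in DKO-3, with medians of -0.38 and -0.07.

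The 7 small subunit factors all lay below 0 in DKS-5, with a median of -0.18, and 4 of 7 did so in DKO-3, also with a median of -0.18. UTP15, a subunit of the complex that binds the nascent ribosomal RNA first, had signals of 745 and 789 in normoxic and 585 and 445 in hypoxic DKS-5 cells, and 674 and 739 in normoxic and 441 and 602 in hypoxic DKO-3 cells. Hypoxia arrays were below normoxia arrays in both lines, with differences of -0.57 (SE 0.23, adjusted p = 0.626, limma) and -0.44. The other probe set of UTP15 differed by -0.39 and -0.08.

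WDR43, of the same early complex, had signals of 1818 and 2021, then 1837 and 1548 in DKS-5, and 1528 and 1643, then 1008 and 1328 in DKO-3. Only the DKO-3 groups were apart, with a difference of -0.45 (SE 0.19, adjusted p = 0.432, limma) against -0.18 in DKS-5. NOP14, which is needed for processing of the small subunit RNA, differed by -0.11 and -0.19, and UTP20, a very large scaffold protein of the processome, by -0.28 and -0.18. BYSL, which accompanies the late small subunit precursor, was dim and differed by -0.42 and 0.15. RRP12, an export factor, and TSR1, a late maturation factor, stayed near 0 with differences between -0.15 and 0.05.

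Of the abundant nucleolar proteins, LYAR stood out from NPM1 and NCL. LYAR, a zinc finger protein of the nucleolus of dividing cells, had signals of 2471 and 2204 in normoxic and 2055 and 1215 in hypoxic DKS-5 cells, and 1777 and 2188 in normoxic and 1223 and 1523 in hypoxic DKO-3 cells. It was lower on each hypoxia array than on the normoxia arrays of its line, with differences of -0.56 and -0.53 and -0.54 (SE 0.16, adjusted p = 0.14, limma) over both lines. The second LYAR probe set gave -0.85 over both lines. NPM1, a histone chaperone of the granular nucleolar compartment, and NCL, an RNA-binding protein of the nucleolus, moved less: NPM1 differed by 0.15 and -0.17, and NCL by 0.10 and -0.03.

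The snoRNP proteins were mixed. NOP58, a core protein of the box C/D particles that methylate ribosomal RNA, had signals of 2963 and 2775, then 2276 and 2038 in DKS-5, and 2233 and 2212, then 2082 and 2044 in DKO-3. All hypoxia arrays were lower within their line, by -0.41 (SE 0.16, adjusted p = 0.621, limma) in DKS-5 and by -0.11 in DKO-3. FBL, the methyltransferase of the same particles, had signals of 2493 and 2186, then 2822 and 2574 in DKS-5, and overlapping signals of 2127 to 2643 in DKO-3, with differences of 0.21 and 0.10. The 2 proteins of this particle thus lay on opposite sides of 0. RRP9, which binds the U3 snoRNA, was dim, with signals of 29.9 to 90.8, of which 29.9 and 85.5 were the replicates of DKO-3 normoxia.

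Of the box H/ACA proteins, which serve pseudouridylation, GAR1 had signals of 3157 and 2679, then 2767 and 3873 in DKS-5, and 2612 and 3149, then 2031 and 2055 in DKO-3. Only DKO-3 had separate groups, with a difference of -0.49 (SE 0.18, adjusted p = 0.390, limma), while the DKS-5 difference was 0.17. NHP2, its partner in the particle, lay at 0.17 and 0.43 with signals of 754 to 1355. NOLC1, a phosphoprotein that accompanies snoRNPs through the nucleolus, had signals of 4704 and 4908, then 4576 and 4343 in DKS-5, and 3928 and 4285, then 3347 and 3773 in DKO-3. Its differences were small but without overlap, -0.11 and -0.21, and its 2 other probe sets gave -0.37 and -0.65 in DKS-5 and -0.31 and -0.20 in DKO-3.

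The 5 genes of RNA polymerase I transcription were split. POLR1B, a large subunit of the enzyme, had signals of 700.2 and 697, then 484 and 569 in DKS-5, and 542 and 689.9, then 407 and 632 in DKO-3. It was apart in DKS-5 alone, with differences of -0.40 and -0.26. Other POLR1B probe sets above the dim filter lay at -0.04, -0.02 and -0.40 in DKS-5. In DKO-3 they lay at -0.27, -0.12 and 0.14, so the size in DKS-5 and the direction in DKO-3 depended on the probe set. POLR1C, a subunit shared with RNA polymerase III, differed by -0.28 and -0.17, and RRN3, the factor that recruits the enzyme to its promoter, by -0.18 and -0.08, with overlapping groups in both lines. The other POLR1C probe set lay at -0.14 in DKS-5 and 0.48 in DKO-3. POLR1A, the largest subunit, and UBTF, which binds the ribosomal DNA promoter, lay above 0 in both lines, POLR1A at 0.25 and 0.19 and UBTF at 0.05 and 0.27. The other probe sets of POLR1A lay at -0.15 and -0.01 in DKS-5 and at -0.09 and 0.39 in DKO-3, so its direction depended on the probe set. The replicates of UBTF differed widely in DKO-3, at 97.0 and 204 in normoxia and 252 and 119 in hypoxia.

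Promoter sequence was looked up for the genes with lower arrays in both lines, to show what the members share outside the array. The 250 bases before the first listed start are given 5′ to 3′ for 3 of them, from RefSeq (GRCh38.p14), with matches to CCGGAAG (an ETS-family motif) or CACGTG (the E-box), on either strand, in capitals. LYAR is on the minus strand at chr4:4290155-4290404, NOP16 on the minus strand at chr5:176388599-176388848, and NOC3L on the minus strand at chr10:94362940-94363189.
LYAR: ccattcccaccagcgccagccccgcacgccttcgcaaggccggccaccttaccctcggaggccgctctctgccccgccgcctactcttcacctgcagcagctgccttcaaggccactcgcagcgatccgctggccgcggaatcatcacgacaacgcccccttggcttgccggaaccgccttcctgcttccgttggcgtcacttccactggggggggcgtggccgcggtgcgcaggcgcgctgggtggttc
NOP16: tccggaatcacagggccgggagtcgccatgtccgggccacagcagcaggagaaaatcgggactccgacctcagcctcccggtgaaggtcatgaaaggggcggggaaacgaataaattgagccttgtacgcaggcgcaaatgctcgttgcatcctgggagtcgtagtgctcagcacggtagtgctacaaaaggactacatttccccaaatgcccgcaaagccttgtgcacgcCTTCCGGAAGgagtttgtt
NOC3L: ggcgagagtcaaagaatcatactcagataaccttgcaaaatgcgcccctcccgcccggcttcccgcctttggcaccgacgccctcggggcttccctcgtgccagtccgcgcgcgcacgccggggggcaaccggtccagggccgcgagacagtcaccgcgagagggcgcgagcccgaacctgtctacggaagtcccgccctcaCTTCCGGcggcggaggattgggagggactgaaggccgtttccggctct
In NOP16 the 2 matches lie on opposite strands and overlap, close to the start. NOC3L holds 1 match, and in LYAR these letters are not in the window shown. UTP15 and WDR12, also lower in both lines and with listed starts, are not shown, and neither motif was found for them.

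Over all listed starts, 25 of the 29 genes entered the promoter count, and motifs were counted on both strands of 250 bases. Members on chromosome 8 were left out before this count, while other genes on that chromosome were kept. CCGGAAG was found for 10 of them (40%), namely POLR1B, POLR1C, RRN3, FBL, RRP9, GAR1, TSR1, NOP16, NOC2L and NOC3L. The share was 33.9% of 109 other ribosome biogenesis genes, 18.5% of 10345 genes tested and 10.2% of all 27305 genes of the table. CACGTG was found for 2 genes, LYAR (at another listed start) and UTP20, a share of 8.0%, against 16.5%, 10.9% and 7.7%. ACGTG, the core of the hypoxia response element and contained in CACGTG, was found for 8 genes, a share of 32.0%, against 34.9%, 28.5% and 21.7%. A match is a description of these letters and not of a bound site.

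The lines were compared at each oxygen level to ask how the pathway differed between the K-ras mutant and the K-ras wild-type line. In hypoxia, NPM1 and GAR1 were higher in DKS-5, and averaged over both oxygen levels NCL and NPM1 were. In normoxia none of the 29 passed. There the limma test called 0 of 29, against 2.54% of all genes, and at an unadjusted p under 0.05 it found 2 higher and 1 lower, against 3.75% and 7.61%. In hypoxia it called 2, both higher in DKS-5, against 1.4% of all genes called higher and 4.38% called in either direction. Over both oxygen levels it called 2, both higher, against 2.98% and 9.12%. The arrays of all 4 groups enter both the comparisons of the lines and those of hypoxia with normoxia, so the 2 sets of differences share samples.

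The NPM1 signals were 10231 and 10629.5 in normoxic and 12582 and 10571 in hypoxic DKS-5 cells, and 9094 and 9908 in normoxic and 8156 and 8724 in hypoxic DKO-3 cells. All 4 DKS-5 arrays were above all 4 DKO-3 arrays. NPM1 was higher in DKS-5 by 0.45 (SE 0.12, adjusted p = 0.0447, limma) in hypoxia, a 1.37-fold difference, and by 0.29 (SE 0.08, adjusted p = 0.0414, limma), or 1.23-fold, over both oxygen levels. The normoxia difference was 0.14 (adjusted p = 0.809, limma). The hypoxia call was lost in 12 of 15 alternatives, among them leaving out any 1 array other than DKS-5 hypoxia replicate 2 (adjusted p from 0.0752 to 0.301, limma), and the difference was 0.09 with quantile normalization and turned to -0.0059 without array scaling. The call over both levels was lost without any 1 array other than the DKS-5 hypoxia arrays (adjusted p from 0.0615 to 0.18, limma), and the difference there was 0.06 without array scaling and 0.13 with quantile normalization. The 2 other probe sets gave 0.07 and 0.07 over both levels and 0.17 and 0.20 in hypoxia. In normoxia they lay at -0.03 and -0.06, so the direction there depended on the probe set.

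The NCL signals were 6985 and 6609 in normoxic and 7336 and 7193 in hypoxic DKS-5 cells, and 5326 and 5929 in normoxic and 5314 and 5738 in hypoxic DKO-3 cells. Replicates were close, the lines did not overlap, and oxygen hardly moved either line. Over both oxygen levels NCL was higher in DKS-5 by 0.33 (SE 0.09, adjusted p = 0.027, limma), a 1.26-fold difference. At each level alone it missed the threshold, with 0.27 (adjusted p = 0.424, limma) in normoxia and 0.39 (adjusted p = 0.0962, limma) in hypoxia. The other NCL probe set, with a mean signal of 31.5, lay at -0.12 in normoxia, 0.09 in hypoxia and -0.01 over both levels. The call was lost in 10 of 15 alternatives (adjusted p from 0.0128 to 0.477 over all, limma), where the difference was 0.10 without array scaling and 0.18 with quantile normalization. They included leaving out either DKS-5 normoxia array, either DKO-3 normoxia array or DKO-3 hypoxia replicate 1.

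For GAR1, whose signals are given with the hypoxia comparison, the DKS-5 hypoxia arrays were above the DKO-3 hypoxia arrays, and the normoxia arrays overlapped. The hypoxia difference was 0.68 (SE 0.18, adjusted p = 0.04995, limma), a 1.60-fold difference, and the normoxia difference was 0.02 (adjusted p = 0.992, limma). The call lay at the threshold and was lost in 13 of 15 alternatives (adjusted p from 0.00679 to 0.428 over all, limma), among them leaving out any 1 array other than DKS-5 hypoxia replicate 1. The GAR1 difference ran from 0.22 without array scaling to 0.99 with the RNA quality covariate. With the RNA quality covariate 0 of the 29 genes passed in hypoxia and 1, NOC2L, over both levels.

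The 3 genes with a called difference are shown with the 250 bases before their first listed start, 5′ to 3′, from RefSeq (GRCh38.p14), marked in the same way. NPM1 is on the plus strand at chr5:171387599-171387848, NCL on the minus strand at chr2:231464485-231464734 and GAR1 on the plus strand at chr4:109815260-109815509.
NPM1: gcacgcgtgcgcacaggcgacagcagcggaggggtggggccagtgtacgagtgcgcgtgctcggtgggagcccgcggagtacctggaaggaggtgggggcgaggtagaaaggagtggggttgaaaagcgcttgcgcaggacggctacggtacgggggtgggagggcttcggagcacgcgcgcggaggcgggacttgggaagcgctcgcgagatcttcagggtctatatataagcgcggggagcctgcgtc
NCL: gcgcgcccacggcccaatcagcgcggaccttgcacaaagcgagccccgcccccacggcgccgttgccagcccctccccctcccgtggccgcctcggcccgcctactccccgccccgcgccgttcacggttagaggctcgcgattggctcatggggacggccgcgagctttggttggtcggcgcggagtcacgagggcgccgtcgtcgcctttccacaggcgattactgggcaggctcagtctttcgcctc
GAR1: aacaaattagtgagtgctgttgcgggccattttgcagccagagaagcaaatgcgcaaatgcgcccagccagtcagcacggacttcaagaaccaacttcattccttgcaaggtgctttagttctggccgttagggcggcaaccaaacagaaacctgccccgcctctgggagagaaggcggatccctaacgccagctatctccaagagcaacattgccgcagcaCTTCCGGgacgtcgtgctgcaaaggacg
GAR1 holds 1 match to the ETS-family motif close to its start, and neither motif is in the windows of NPM1 and NCL. The G and C content of the 3 windows was 67.6%, 72.0% and 55.2%.

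**Figure D3:**
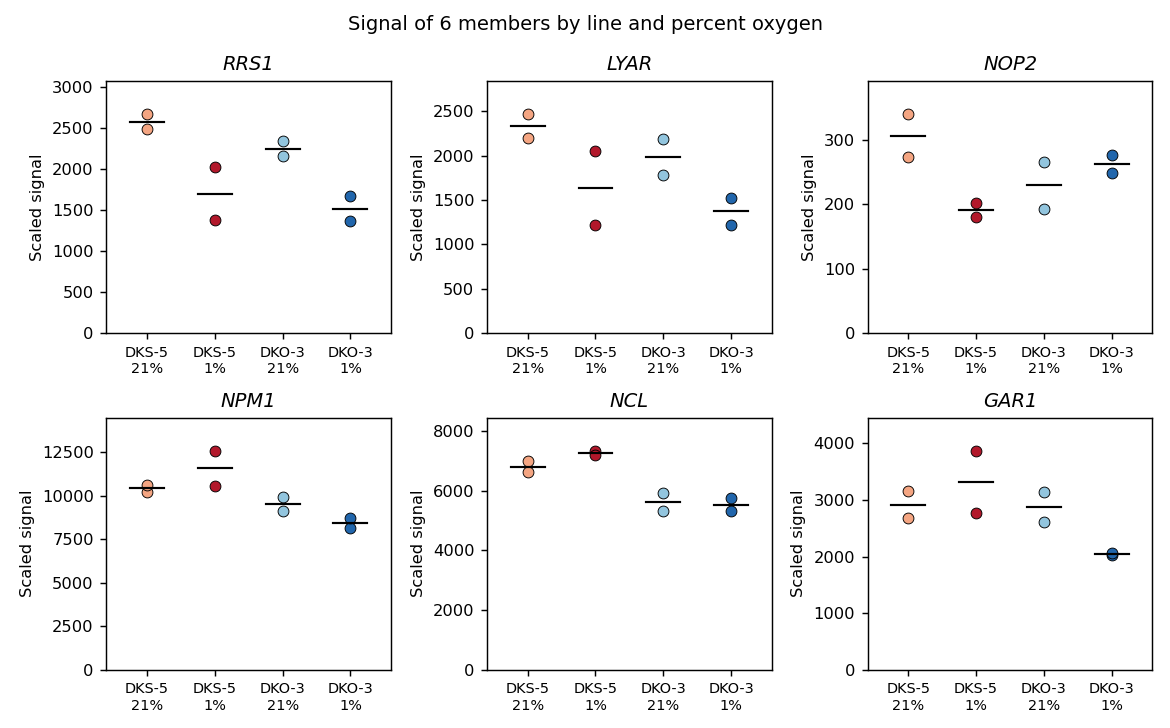
Scaled signals of RRS1, LYAR, NOP2, NPM1, NCL and GAR1 on each array (points), by line and percent oxygen, with a bar at each group mean. NPM1 and NCL show all DKS-5 points above all DKO-3 points, and RRS1 shows lower hypoxia points in both lines.

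Beside these genes, the difference between lines was above 0 for 23 of 29 genes in normoxia, against 50.9% of all genes, for 18 in hypoxia, against 46.2%, and for 17 at both levels, against 32.6%. The median was 0.14 in normoxia and 0.07 in hypoxia, against 0.01 and -0.03 over all genes. Without array scaling the median over both levels turned from 0.12 to -0.11, and that of all genes moved from -0.01 to -0.21, so the members' position relative to all genes kept its side. Both DKS-5 arrays were above both DKO-3 arrays for 13 genes in normoxia, against 21.4% of all genes, and for 7 in hypoxia, against 19.1%, and they were below for 1 and 5 genes, against 22.2% and 25.9%. NOLC1, NOP14, WDR43, NPM1 and NCL had higher DKS-5 arrays at both levels, against 9.08%, and POLR1A alone had lower ones, against 12.4%. With the levels pooled, all 4 DKS-5 arrays were above all 4 DKO-3 arrays for 4 genes (NPM1, NCL, NOLC1 and NOP14), against 5.43%, and below for 0, against 8.46%.

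WDR43 lay at 0.27 in normoxia and 0.54 (SE 0.19, adjusted p = 0.138, limma) in hypoxia. NOP14 had signals of 429 and 509, then 436 and 431 in DKS-5, and 362 and 364, then 307 and 326 in DKO-3, with all DKS-5 arrays the higher ones and differences of 0.35 and 0.44. NOLC1 differed by 0.23 and 0.33. Its other probe sets gave 0.11 and 0.07 in normoxia and 0.05 and -0.38 in hypoxia, so the direction in hypoxia depended on the probe set. None of these 3 genes passed the threshold.

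POLR1A went the other way. Its signals were 162 and 209 in normoxic and 204 and 242 in hypoxic DKS-5 cells, and 233 and 349 in normoxic and 343 and 312 in hypoxic DKO-3 cells. DKS-5 was lower at each level, by -0.59 (SE 0.26, adjusted p = 0.375, limma) in normoxia and -0.53 in hypoxia, and by -0.56 (SE 0.18, adjusted p = 0.0693, limma) over both. The 2 other probe sets of POLR1A lay at 0.17 and 0.06, on the opposite side. The second gene of this group below 0, UBTF, lay at -0.25 and -0.47, whereas POLR1B, POLR1C and RRN3 lay at 0.19, 0.21 and 0.23 in normoxia. Other UBTF probe sets above the dim filter lay at -0.23, 0.18 and 0.25 in normoxia and at -0.15, 0.49 and -0.19 in hypoxia.

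By role, all 8 large subunit genes lay above 0 in normoxia, from 0.06 to 0.40, and 5 of 8 in hypoxia. NOP58 lay at 0.37 (SE 0.16, adjusted p = 0.372, limma) in normoxia and 0.06 in hypoxia, and NOP2 at 0.40 and -0.43. RRP9, a dim gene, had the lowest value of the 29 in hypoxia, -0.66.

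**Figure D4:**
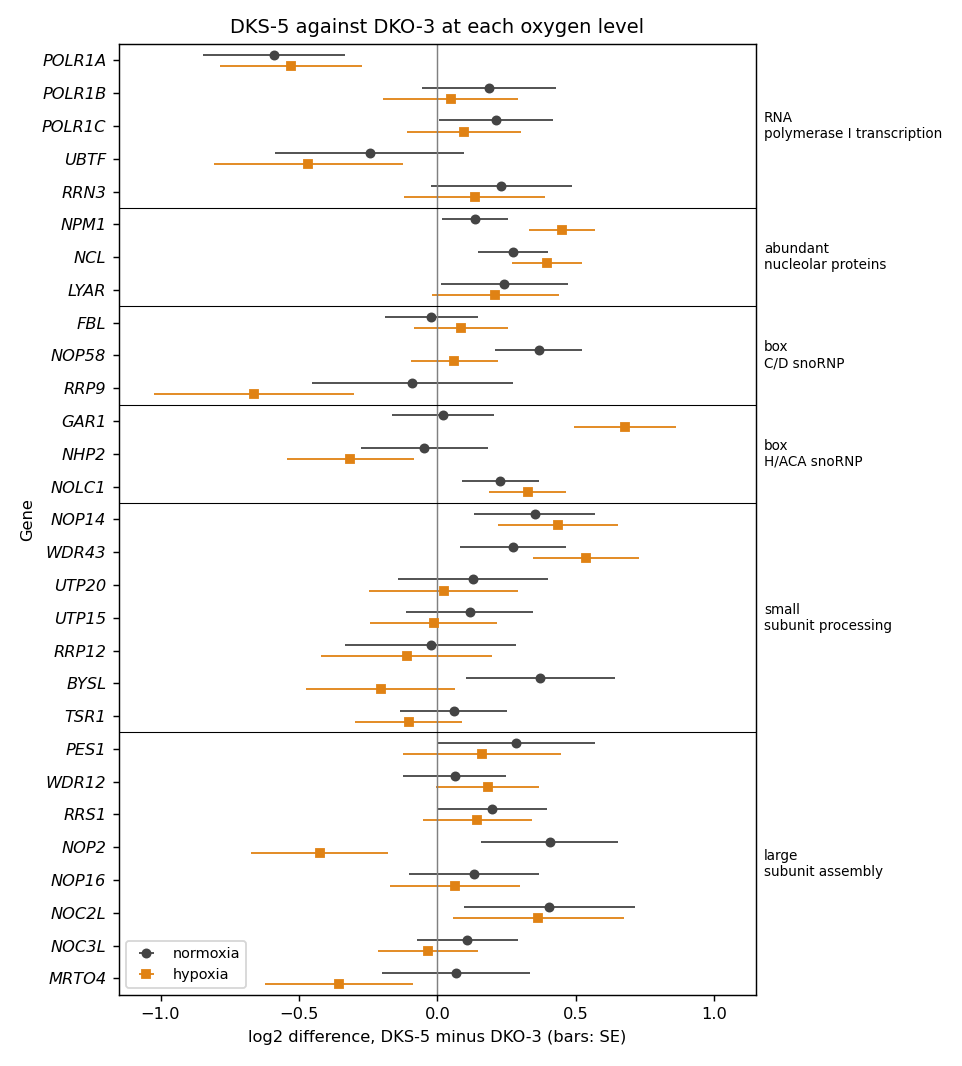
Log2(signal + 16) difference of DKS-5 minus DKO-3 for each of the 29 genes (rows, by role) in normoxia and in hypoxia, with bars of 1 standard error from the limma fit. NPM1, NCL, NOLC1, NOP14 and WDR43 lie above 0 at both levels and POLR1A below 0 at both.

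The difference between the hypoxia responses of the lines was tested as an interaction. None of the 29 passed, and neither did any of the 12735 genes (limma, 0%), and an unadjusted p under 0.05 was found for 1 member higher and 1 lower, against 1.09% and 1.53% of all genes. Those were GAR1, with 0.66 (SE 0.26, unadjusted p = 0.0232), and NOP2, with -0.83 (SE 0.35, unadjusted p = 0.0304). Both had an adjusted p of 0.9998. For NOP2 the DKS-5 hypoxia arrays and 1 DKO-3 normoxia array were the 3 lowest, and for GAR1 the DKO-3 hypoxia arrays were the lowest of all. The response was lower in DKS-5 for 20 of 29 genes, against 52% of all genes, with a median of -0.10 against -0.02.

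A second list held 134 other ribosome biogenesis genes, of which 129 had a probe set and 127 were tested. Hypoxia called 0 of them in either line by limma, with 18 lower and 1 higher in DKS-5, against 2.47% and 4.45% of all genes, and 13 lower and 3 higher in DKO-3, against 2.69% and 7.82%, at an unadjusted p under 0.05. Of the 127, 102 lay below 0 in DKS-5 and 83 in DKO-3, with medians of -0.16 and -0.15. Both hypoxia arrays were the lower ones in both lines for 32 of 127, against 5.28% of all genes.

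The other genes nearest to the threshold in the hypoxia comparison over both lines included both directions. PIH1D1, a subunit of the R2TP co-chaperone that assembles snoRNPs, had signals of 169 and 227, then 395 and 268 in DKS-5, and 173 and 224, then 363 and 335 in DKO-3. It was higher on the hypoxia arrays of both lines, by 0.73 (adjusted p = 0.0739, limma). DIMT1, a methyltransferase of the small subunit RNA, had signals of 2289 and 2445, then 1944 and 1203 in DKS-5, and 1773 and 1682, then 1228 and 1290.0 in DKO-3, and lay at -0.54 (adjusted p = 0.104, limma). ESF1, a nucleolar factor, lay at -0.64 (adjusted p = 0.104, limma).

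**Figure D5:**
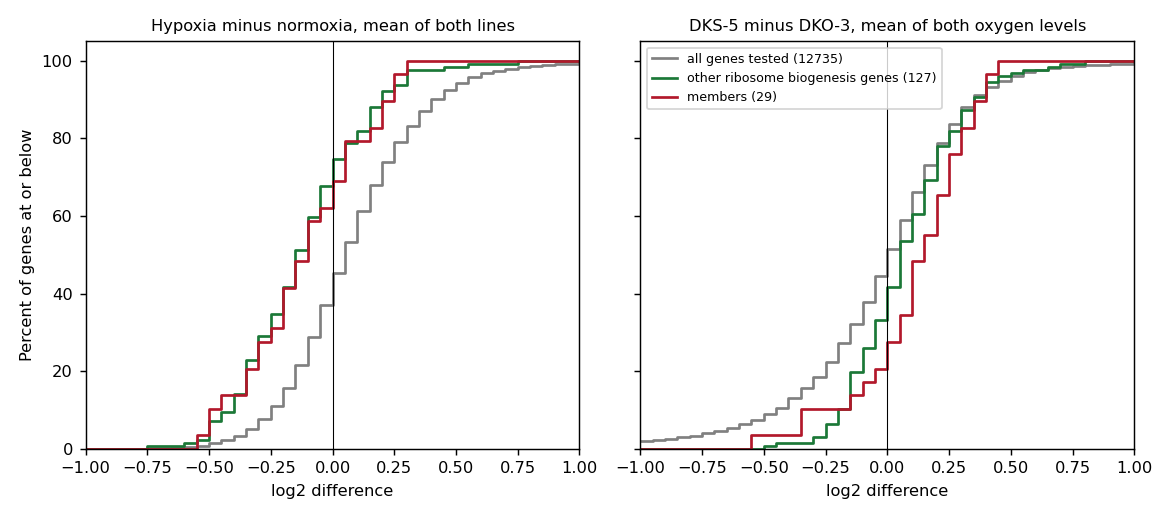
Cumulative percent of genes by log2(signal + 16) difference for the 29 ribosome biogenesis genes (members), the 127 others and all 12735 genes tested, for hypoxia minus normoxia over both lines (left) and DKS-5 minus DKO-3 over both oxygen levels (right). On the left, both ribosome biogenesis curves lie to the left of that of all genes around 0, with medians of -0.15, -0.16 and 0.03, and on the right the medians are 0.12, 0.03 and -0.01.

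Between the lines, 3 of the 127 (URB1, MDN1 and DDX31) were called higher in DKS-5 over both oxygen levels and 0 lower, against 2.98% and 6.14% of all genes, so the share called higher was close to the background. URB1, a scaffold of early large subunit particles, had signals of 488 and 453, then 425 and 460.5 in DKS-5, and 383 and 272, then 221 and 208 in DKO-3. Its DKS-5 arrays were all higher, by 0.76 (SE 0.17, adjusted p = 0.00826, limma). MDN1, the giant ATPase that removes assembly factors from the large subunit, had signals of 1287 and 1208, then 1173 and 1159 in DKS-5, and 1039 and 936, then 684 and 691 in DKO-3, and was higher by 0.54 (SE 0.13, adjusted p = 0.0174, limma). DDX31, a DEAD-box helicase, was higher by 0.63 (SE 0.17, adjusted p = 0.0292, limma). In hypoxia alone 2 of the 127 passed as higher, against 1.4% of all genes, URB1 and MDN1, with 0.99 (adjusted p = 0.0264, limma) and 0.75 (adjusted p = 0.036, limma). The median of the 127 over both levels was 0.03, against 0.12 for the 29.

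Of the 29 genes, 14 had more than 1 probe set above the dim filter. All probe sets of a gene shared their sign for 8 of the 14 in the hypoxia comparison of DKS-5, for 8 in that of DKO-3, and for 6 in the comparison of the lines over both oxygen levels. RRS1, GAR1, NOP58, WDR43, NOP14 and NOP2 had 1 probe set each, so that their differences have no such check.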

How the data were processed

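The deposited values are probe set intensities on a linear scale, computed by the authors in MAS5, as the submitters' processing notes say, with version and settings not given in the sources used here. RNA was amplified with the NuGEN Ovation V2 system per the labels' protocols. Arrays were scaled to a common 2% trimmed mean of 172.9, values were taken as log2(signal + 16), which understates fold changes of dim genes, and a gene was tested where its mean exceeded the 40th percentile over probe sets (a signal of 13.8). Of 54675 probe sets, 41091 had 1 gene symbol in the platform annotation, 1801 had several, and 62 were controls and left out.

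The test was that of limma 3.58.1 under R 4.3.3 (a mean for each group, all 8 arrays in 1 fit, eBayes with trend, 4 residual and 11.3 prior degrees of freedom), two-sided, with Benjamini-Hochberg adjustment and a threshold of 0.05. The fit was tested on simulated data. The number of arrays limits the precision. The members and lists were chosen with earlier results of these data known. Named in each comparison were members past the threshold, or the 4 with the smallest p where fewer passed; further members are described to cover every role, and their values were seen before the text was written. Alternatives were no scaling, quantile normalization, a pseudocount of 1, no dim filter, the mean of a gene's probe sets, the ACTB 3′ to 5′ ratio as covariate, the replicate number as a block, and leaving out each array.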

Additional observations from a re-analysis of the deposited data

How the results depend on the processing

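Of the values of single named genes under alternatives, 358 kept direction and side of the threshold, 46 lost the call, 12 gained one and 4 reversed, and the cause was not tested. All 46 losses fell on the calls between the lines. Of 15 alternatives each, these were 13 for GAR1, 10 for NCL, 12 for NPM1 over both levels and 11 for NPM1 in hypoxia, besides 1 reversal there. The other named values were not calls in the main fit, so most of those kept were values that stayed past no threshold. The reversals were NPM1 in the line comparison in hypoxia (-0.0059) and in the interaction (-0.14), and NCL in hypoxia (-0.061), without array scaling, and NPM1 in the interaction (-0.075) with quantile normalization. Without array scaling, genes called numbered 33 for hypoxia in DKS-5, 84 for hypoxia in DKO-3, 2373 for the lines in hypoxia (64 higher, 2309 lower) and 1770 over both levels (138 higher, 1632 lower). Members called there were 4 in hypoxia and 1 over both levels, lower in DKS-5, and RRS1 alone (1 member) for hypoxia over both lines. The medians of the members became -0.43 for hypoxia in DKS-5, 0.086 in DKO-3, -0.38 for the lines in hypoxia, -0.11 over both levels and -0.51 for the interaction, while those of all genes became -0.19, 0.20, -0.42, -0.21 and -0.41. With the RNA quality covariate, genes called numbered 14 for hypoxia in DKO-3, 63 over both lines, 128 for the lines in hypoxia and 446 over both levels, with 0 and 1 members in the latter 2 and an interaction median of 0.057. With no dim filter the genes numbered 35, 7 and 70 for hypoxia in DKS-5, DKO-3 and both, and 144, 218 and 773 for the lines in normoxia, hypoxia and both, with 0 members called. With the mean of probe sets there were 40 genes for hypoxia in DKS-5. There NPM1, GAR1 and NCL lost their calls between the lines, and NOP14 was called over both levels. With quantile normalization NPM1, GAR1 and NCL lost their calls as well, and RRS1 was called for hypoxia over both lines. With a pseudocount of 1, NPM1 kept its call for the lines in hypoxia and GAR1 lost it. For these settings and the replicate block, the share of all genes called between the lines is not given. These calls of members were therefore not compared with a background. The labels do not say what the replicate numbers mean, and the deviations of same-numbered arrays correlated from -0.0875 to 0.330 over the pairs of groups, so arrays were not treated as pairs. With the replicate block, genes numbered 92 for hypoxia in DKO-3 and 325 over both lines, with 1 member (RRS1) over both lines, and 2 members each for the lines in hypoxia (NPM1, GAR1) and over both levels (NCL, and POLR1A lower). Leaving out 1 array gave 29 to 294 genes for hypoxia in DKS-5, 1 to 69 in DKO-3, 58 to 764 over both lines, 119 to 443, 135 to 761 and 630 to 1517 for the lines in normoxia, hypoxia and both, and 0 to 0 for the interaction. Members called ranged from 0 to 2, 0 to 0, 0 to 4, 0 to 0, 0 to 1 and 0 to 3 in that order. The median ranged from -0.29 to -0.081, -0.23 to -0.090, -0.23 to -0.09, 0.052 to 0.32, -0.086 to 0.14 and 0.03 to 0.19, and from -0.22 to 0.086 for the interaction. RRP9, NOC2L and BYSL were dim, which limits the size of difference that could be seen in them.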
